A study of Mus musculus with 3 samples.

Results

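Limb mesenchyme cells of 2 kinds were compared, those with transcripts of Hand2 and none of Alx4, called posterior here, and those with transcripts of Alx4 and none of Hand2, called anterior. All were from forelimb buds of mouse embryos of wild-type genotype, profiled by droplet single-cell RNA sequencing. There were 3 libraries. B6_E9.5 and B6_E10.5 are of strain c57bl6.J at these embryonic stages, and 129_E9.5 is of strain 129S6.sv. Each library was 1 reaction, the labels do not say how many embryos it pooled, and no cell was located in the tissue, so that the names of both sides rest on the counts of 2 genes. Cells were taken from the largest of the 5 clusters in the authors' deposited annotation if they held at least 4000 unique molecular identifiers (UMIs, 1 for each captured molecule). A posterior cell had at least 2 Hand2 UMIs and 0 Alx4 UMIs, and an anterior cell the reverse. This gave 2673 posterior cells (974 of them in B6_E9.5, then 1420 from B6_E10.5, with 279 from 129_E9.5) and 156 anterior cells (109, 30 and 17). Together they were 2829 of 24722 cells of that cluster and depth, of 34236 in the cluster and of 43950 in all.

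The early limb bud carries its thumb-to-little-finger pattern as a posterior and an anterior territory of mesenchyme. HAND2, a basic helix-loop-helix factor, prepares the posterior margin for Sonic hedgehog, and the repressor form of GLI3 together with ALX4, a paired-type homeodomain factor, keeps the Hedgehog programme out of the anterior margin. Hox genes are switched on along their clusters in order, so that the genes at the 5′ ends mark late, posterior and distal tissue and those at the 3′ ends early and anterior tissue. Hand2 is also active in heart and flank mesoderm, and markers of both are given beside the results they bear on.

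The cluster had the levels of limb mesenchyme: the 12 mesenchyme markers (Prrx1, Tbx5, Shox2 and others) summed to 2305 CPM there (UMIs scaled to a common library total, the usual counts-per-million unit) and to at most 372 in any other cluster. The chosen cells were similarly deep on both sides. In B6_E9.5 the median was 18580 UMIs per posterior and 21257 per anterior cell, in B6_E10.5 8281.5 and 9124.5, and in 129_E9.5 8842 and 9642. The sums were far from equal, however, with 16791731, 12512782 and 2643347 UMIs on the posterior and 2052267, 300112 and 186880 on the anterior side. Precision was therefore set by the anterior sums, above all in the E10.5 and 129S6.sv libraries. Among the chosen cells, 8 shared a barcode with a chosen cell of another library and 91 with any cell of another library.

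Hand2 and Alx4 transcripts were found together in fewer cells than each was found alone. In that order of libraries, Hand2 was detected in 2445 of 6400, 3352 of 10310 and 1346 of 8012 cells. Alx4 was detected in 823, 498 and 346. Both were found in 230, 113 and 40 cells, fewer than the 314, 162 and 58.1 that independent detection at those rates would give. Of the cells with Alx4, 27.9%, 22.7% and 11.6% also held Hand2, against 39.7%, 33.0% and 17.0% of the cells without Alx4. Cells with at least 2 UMIs of each numbered 9, 6 and 0. Just outside the rule lay 1241, 1819 and 1027 cells with a single Hand2 UMI and no Alx4, and 484, 355 and 289 with a single Alx4 UMI and no Hand2. These counts chose the cells and are given as a description, with no test.

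**Figure D1:**
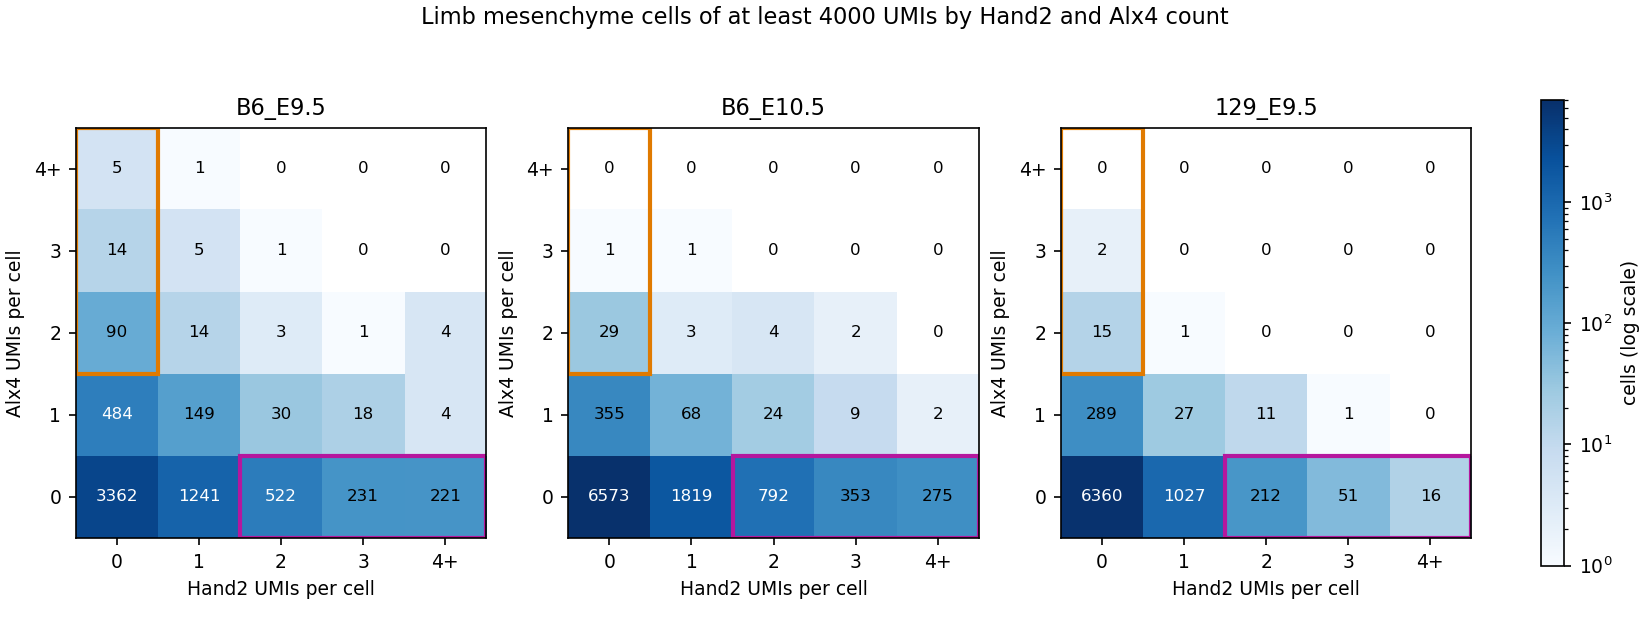
Number of cells by Hand2 UMIs (horizontal) and Alx4 UMIs (vertical) in each library, limb mesenchyme cells of at least 4000 UMIs, shaded on a log scale. The purple box holds the posterior cells (974, 1420 and 279) and the orange box the anterior cells (109, 30 and 17); the upper right corner is nearly empty.

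UMIs were summed per side and library, Hand2 and Alx4 were left out, and the 6 sums were compared with edgeR's quasi-likelihood test with the library as a block, so that each posterior sum was set against the anterior sum of its own library. Of 9340 genes tested, 128 (1.37%) passed an adjusted p of 0.05 (Benjamini-Hochberg): 71 were higher on the posterior side (0.760%) and 57 on the anterior side (0.610%). The counts of list members called below are to be read against these shares. The median log2 fold change over all genes tested was 0.0139. Without the library block the test called 0 genes, with 155 at an unadjusted p under 0.05. DESeq2 with the block called 12 higher posterior and 31 higher anterior. Of the 69 genes called by edgeR and described by name or list, 38 were not called by DESeq2, among them Hoxa4, Hoxa10, Hoxb8, Hoxc8, Tbx15, Lmx1b, Zbtb16, Rarb, Bambi, Wnt5a, Nkd1, Dkk1, Efnb2, Robo2, Col2a1, Osr1, Col1a1, Igf1, Ccnd1, Cdkn1c, Dlk1, Plagl1, Gata6, Tnni1, Meox1 and Tcf15. Without B6_E9.5, which holds most anterior UMIs, edgeR called 17 and 26, and without B6_E10.5 it called 115 and 89. With cells chosen by at least 3 UMIs in place of 2, which left 22 anterior cells, it called 6 and 9. The labels name no separate embryos. The p-values measure the spread of the posterior over anterior difference between these 3 libraries, which also differ in stage or strain. In summed cells, fewer expressing cells and less RNA per cell cannot be told apart.

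Folds were ranked among called genes of the same sign in 3 of 3 libraries. These also needed at least 20 CPM on the higher side in at least 2 libraries. By that ranking the largest posterior differences were in 5′ Hox genes, in Dok4, which encodes an adaptor of receptor tyrosine kinases, and in Cntfr, a cytokine receptor subunit. Called genes outside the ranking, such as Hoxc8 (3.08), are described below. Dok4 was at 81.1 CPM posterior and 10.2 anterior in B6_E9.5, at 15.2 and 10.0 in B6_E10.5 and at 85.1 and 0 in 129_E9.5. The anterior side was lower in each library, with a near tie in B6_E10.5 (log2 fold change 2.97, SE 0.30, adjusted p = 5.65e-09). Cntfr was at 25.8 and 5.36, 47.5 and 13.3, and 24.97 and 0 CPM in the same order (2.28, SE 0.33, adjusted p = 1.92e-05). Others of the 12 largest were Olfm1 (1.9999), Unc5c, a netrin receptor (1.496), Lamb1, a laminin chain (1.42), the ephrin receptor gene Epha3 (1.34), Hsd11b2, which inactivates glucocorticoids (1.34), and Tpd52l1 (1.33). Without B6_E9.5 none of these 8 kept the call: Dok4 was at 2.73 (adjusted p = 0.098), Cntfr at 2.24 (adjusted p = 0.096), and Olfm1 and Epha3 fell to 0.44 and 0.23. Tpd52l1 also lost it without B6_E10.5 (0.92, adjusted p = 0.17). DESeq2 called Cntfr and none of the other 7.

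By the same ranking, the largest anterior differences were in adhesion, receptor and transcription factor genes. Runx2 (-2.88) fell outside the ranking and is described below. Pcdh19, a protocadherin on the X chromosome, was at 2.03 CPM posterior and 20.5 anterior in B6_E9.5, at 3.04 and 20.0 in B6_E10.5 and at 6.43 and 21.4 in 129_E9.5. The anterior levels were nearly equal in the 3 libraries and the posterior ones all lower (-2.87, SE 0.39, adjusted p = 5.36e-06). Ngfr, the low-affinity neurotrophin receptor, was at 5.30 and 43.9, 2.48 and 10.0, and 10.97 and 53.5 CPM (-2.74, SE 0.30, adjusted p = 3.12e-08), with 90, 3 and 10 anterior UMIs. Emx2, a homeobox gene needed for the shoulder blade, was at 3.16 and 12.7, 8.55 and 33.3, and 3.41 and 37.5 CPM (-2.19, SE 0.37, adjusted p = 1.94e-04). Tmem100 (-2.40), Crym, a thyroid hormone-binding protein (-2.196), Jaml, a junctional adhesion molecule (-1.57), and Rnf150 (-1.46) were also among the 12 largest. Without B6_E9.5 these 7 genes lost the call while staying negative: Pcdh19 was at -2.28 (adjusted p = 0.61), Ngfr at -2.204 (0.45), Emx2 at -2.43 (0.084), Tmem100 at -2.81 (0.11), Crym at -1.74 (0.76), Jaml at -1.74 (0.53) and Rnf150 at -1.78 (0.38). DESeq2 called each of these 7 except Rnf150.

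**Figure D2:**
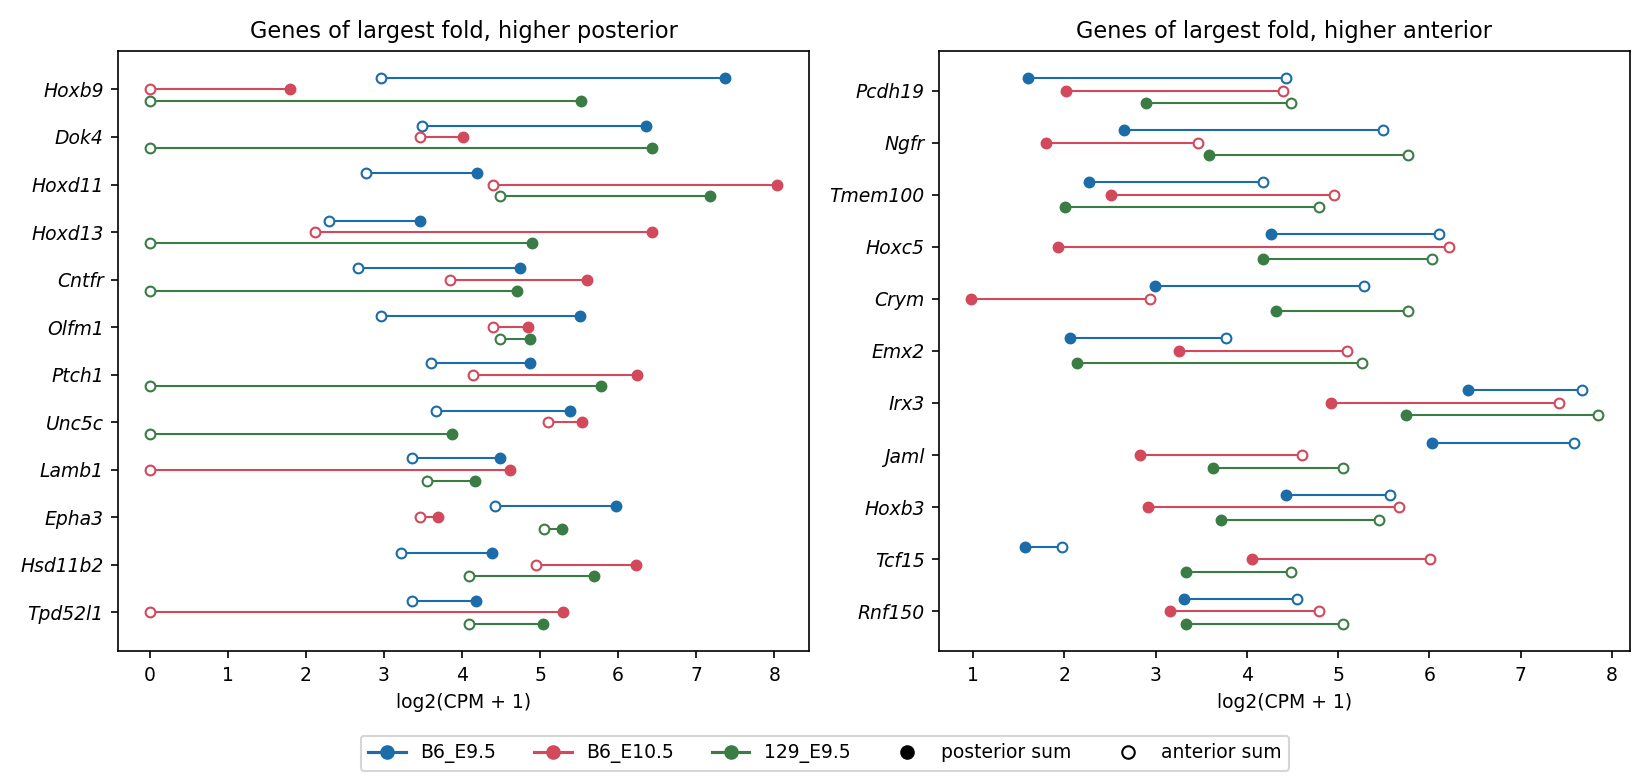
Level of genes of largest fold change in each direction, ranked as in the text, as log2(CPM + 1), for the posterior sum (filled) and the anterior sum (open) of each library (colour), joined by a line. The filled point lies to the right in each of the 3 libraries on the left panel and to the left on the right panel; several anterior points on the left panel are at 0 UMIs.

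Hedgehog signalling starts at the secreted ligand SHH. Shh was counted 17 times on the posterior side in B6_E9.5, 176 times in B6_E10.5 and 7 times in 129_E9.5, and 0 times on the anterior side of each. In B6_E10.5 this was 14.1 CPM, at least 1.41-fold higher than the 10.0 CPM that 3 UMIs would make in the anterior sum. In B6_E9.5 the posterior level was itself low, at 1.01 CPM, below the 1.46 CPM of 3 UMIs in its anterior sum. In 129_E9.5 the posterior level was 2.65 CPM, and 3 UMIs would make 16.1 CPM in the anterior sum. No difference was therefore detectable in B6_E9.5 or 129_E9.5. Of the posterior cells, 1.23% (12 cells), 4.86% (69) and 2.15% (6) had a Shh UMI, against 0 of 813, 1 of 692 and 0 of 785 ectodermal cells of the same depth minimum. Cells with a single Alx4 UMI and no Hand2 also held 0 Shh UMIs in each library, and within the posterior side of B6_E10.5 Shh was at 8.35, 17.4 and 23.6 CPM in cells with 2, 3 and at least 4 Hand2 UMIs. Shh had too few UMIs to be tested.

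Among the receptors, Ptch1 and Gas1 differed in opposite directions. Ptch1, which encodes the SHH receptor and is itself induced by the pathway (chr13:63508328-63573598, - strand, mm10), was at 28.2 CPM posterior and 11.2 anterior in B6_E9.5, at 74.7 and 16.7 in B6_E10.5 and at 54.1 and 0 in 129_E9.5. The posterior level was the higher in each library, 2.51-fold (95% interval 1.66 to 4.004, counting error only), 4.48-fold (1.91 to 13.8) and, with 0 anterior UMIs, at least 2.71-fold (lower limit of the interval). Over the libraries the log2 fold change was 1.77 (SE 0.28, adjusted p = 8.59e-05). Gas1, a co-receptor of SHH that the pathway represses (chr13:60174405-60177365, - strand), was at 212 and 468 CPM, 157 and 553, and 134 and 359, so that no posterior sum reached an anterior one. It was 2.21-fold (2.05 to 2.37), 3.52-fold (2.99 to 4.13) and 2.68-fold (2.03 to 3.48) higher on the anterior side (-1.40, SE 0.11, adjusted p = 8.33e-12). The other co-receptors, Cdon (-0.45, SE 0.25, adjusted p = 0.83) and Boc (-0.47, SE 0.40, adjusted p = 1.00), did not pass the test. Both calls held without each library in turn and with DESeq2.

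Of the effectors, Gli3, whose protein is the main Hedgehog repressor in the limb, was at 85.2 and 151 CPM in B6_E9.5, at 58.6 and 93.3 in B6_E10.5 and at 68.1 and 128 in 129_E9.5. It was higher on the anterior side in each library (-0.79, SE 0.14, adjusted p = 3.16e-04), but not called without B6_E9.5 (-0.78, adjusted p = 0.21) or after each cell was thinned to 4000 UMIs (-0.71, adjusted p = 0.25). Gli1, an activator that the pathway induces, was at 3.75 and 1.95, 21.3 and 6.67, and 9.84 and 0 CPM, with 4, 2 and 0 anterior UMIs, and was not called (1.43, SE 0.55, adjusted p = 0.405). Gli2 (-0.22), the transducer Smo (-0.11), the intracellular inhibitors Sufu (0.04) and Kif7 (-0.01), and Disp1 (-0.47) and Hhat (0.13), which release and acylate the ligand, did not pass. Hhip, a ligand trap, was not tested, with 24, 74 and 5 posterior UMIs against 1, 0 and 0. In all, 3 of 12 tested members of the Hedgehog list were called, 1 posterior and 2 anterior, with a median log2 fold change of -0.17.

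The starts of Hand2 and of Gli3, genes that oppose each other in the bud, are shown as the 250 bases before the RefSeq start (GRCm38.p6, + strand); capitals mark CATCTG, a form of the E-box that basic helix-loop-helix factors such as HAND2 can bind. The first lies at chr8:57320733-57320982 and the second at chr13:15463473-15463722.
Hand2: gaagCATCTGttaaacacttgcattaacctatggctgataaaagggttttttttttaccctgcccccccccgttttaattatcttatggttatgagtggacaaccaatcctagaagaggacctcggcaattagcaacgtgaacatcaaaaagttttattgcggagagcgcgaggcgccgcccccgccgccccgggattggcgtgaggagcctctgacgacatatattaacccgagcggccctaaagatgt
Gli3: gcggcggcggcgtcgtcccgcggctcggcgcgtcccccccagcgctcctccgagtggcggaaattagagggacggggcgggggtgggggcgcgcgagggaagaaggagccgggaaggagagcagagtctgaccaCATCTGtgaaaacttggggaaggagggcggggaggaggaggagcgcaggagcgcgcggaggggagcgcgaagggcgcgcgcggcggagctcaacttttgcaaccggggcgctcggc
CATCTG, searched on both strands from 250 bases before to 50 after the start, was in 6 of 51 promoters found for the genes higher posterior (11.8%) and 7 of 35 for those higher anterior (20.0%), against 12.3% of 7480 tested genes with a promoter entry and 17.2% of all 32851 promoters. GACCACCCA, the core of the GLI site, was in 0 of either set and in 0.308% of tested genes, the palindrome of paired-type homeodomains in 0 of either and 0.241%, and CCAATAAA, a posterior HOX motif, in 0 of either and 0.949%. A match is a run of letters and not a bound site.

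**Figure D3:**
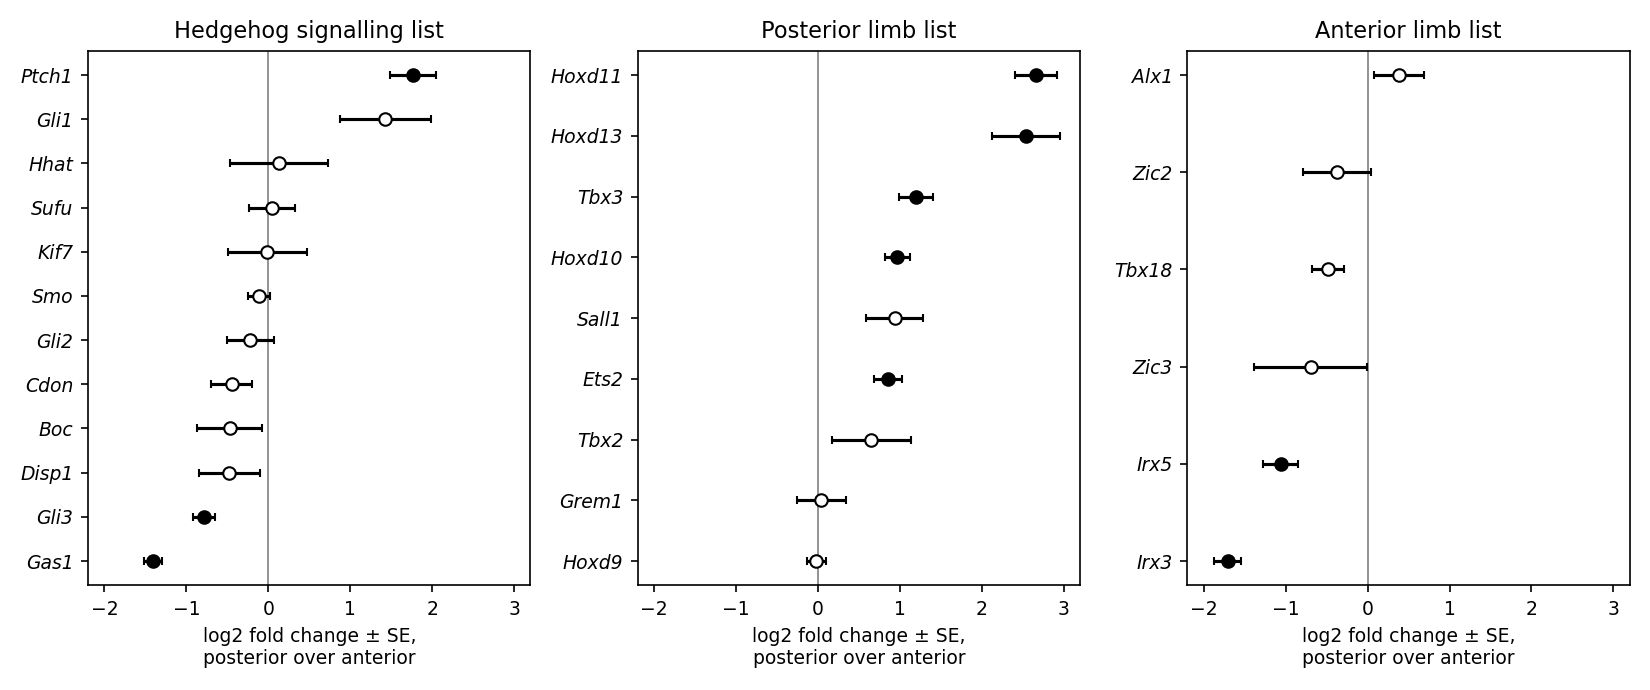
Fitted log2 fold change with its SE, posterior over anterior, for tested members of the Hedgehog, posterior limb and anterior limb lists; filled points passed an adjusted p of 0.05. Ptch1 (1.77) and Gas1 (-1.40) lie at opposite ends of the first panel, and the posterior list lies mostly to the right of 0.

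Of the posterior limb list, 5 of 9 tested members were called higher posterior and 0 higher anterior, with a median log2 fold change of 0.93; 3 of the 5 were the Hox genes Hoxd10, Hoxd11 and Hoxd13. The list was drawn up with results of these data known, and 6 members were higher posterior in 3 of 3 libraries, where 14.0% of all tested genes were. Tbx3, a T-box repressor of the posterior margin, was at 76.8 and 26.8 CPM in B6_E9.5, at 61.4 and 56.7 in B6_E10.5 and at 67.7 and 26.8 in 129_E9.5. The sides were nearly level in B6_E10.5 (1.08-fold, 0.672 to 1.87) and far apart in the E9.5 libraries (2.86-fold and 2.53-fold), with a fitted difference of 1.20 (SE 0.21, adjusted p = 4.24e-04) that was lost without B6_E9.5 (0.49, adjusted p = 0.91) and with DESeq2. Ets2, a transcription factor that acts on Shh, was at 113 and 78.5, 116 and 26.7, and 118 and 53.5 CPM (0.85, SE 0.17, adjusted p = 1.50e-03), with almost the same posterior level in each library. In cells thinned to 4000 UMIs neither Tbx3 (0.73, adjusted p = 0.71) nor Ets2 (1.01, adjusted p = 0.052) was called. Sall1 (0.93, adjusted p = 0.36), Tbx2 (0.65, adjusted p = 0.96) and Grem1, the BMP antagonist of the SHH relay (0.04, adjusted p = 1.00), were not called. Bmp2 was not tested, with 79, 87 and 2 posterior UMIs against 4, 0 and 0.

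Of the anterior limb list, 2 of 7 tested members were called higher anterior and 0 higher posterior (median -0.48). Irx3, an Iroquois homeobox gene of the anterior and proximal bud (chr8:91798525-91802067, - strand), was at 84.6 and 203 CPM in B6_E9.5, at 29.4 and 170 in B6_E10.5 and at 52.6 and 230 in 129_E9.5. The anterior sums were 2.40-fold (2.14 to 2.68), 5.78-fold (4.22 to 7.76) and 4.38-fold (3.03 to 6.20) higher (-1.71, SE 0.16, adjusted p = 1.44e-09), and the call held without each library and with DESeq2. In B6_E10.5, 15 of the 51 anterior Irx3 UMIs came from 1 cell, and the other 29 cells stood at 124 CPM. Irx5, its neighbour in the Iroquois cluster, was at 32.3 and 62.9, 11.1 and 23.3, and 20.4 and 64.2 CPM (-1.06, SE 0.21, adjusted p = 2.14e-03) and was lost without B6_E9.5 (-1.40, adjusted p = 0.34), with DESeq2 (adjusted p = 0.093) and in thinned cells (-1.08, adjusted p = 0.28). Alx1, a paralogue of Alx4, did not pass (0.38, SE 0.30, adjusted p = 0.98): it was at 80.1 and 45.3, 6.32 and 46.7, and 41.6 and 26.8 CPM, higher posterior in both E9.5 libraries and higher anterior at E10.5. Pax1, a paired-box gene of sclerotome and shoulder girdle, was removed by the filter on low values and was found in B6_E10.5 alone, at 11.8 CPM posterior and 70.0 anterior (148 and 21 UMIs).

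Hox genes differed by paralogue group. Of 8 tested genes of paralogue groups 9 to 13, 6 were higher posterior and 0 higher anterior (median log2 fold change 0.89), and of 20 tested in groups 1 to 8, 2 were higher posterior and 8 higher anterior (median -0.89). Hoxd11 (chr2:74679557-74687016, + strand) was at 17.2 and 5.85 CPM in B6_E9.5, at 262 and 20.0 in B6_E10.5 and at 143 and 21.4 in 129_E9.5, each posterior sum above its anterior one by 2.94-fold (1.66 to 5.76), 13.1-fold (6.02 to 35.8) and 6.70-fold (2.59 to 24.7). The fitted difference was 2.67 (SE 0.26, adjusted p = 1.91e-09). A Hoxd11 UMI was found in 18.8%, 74.3% and 56.3% of posterior cells, in 10.1%, 10.0% and 17.6% of anterior cells, and in 0.492%, 7.08% and 0.892% of ectodermal cells, which should lack it. Thinned to 4000 UMIs, the posterior shares were 5.54%, 56.8% and 40.9% and the anterior ones 2.75%, 6.67% and 0%. Hoxd13 (chr2:74668310-74671599, + strand), the last gene of the cluster, was at 10.1 and 3.90, 85.2 and 3.33, and 28.8 and 0 CPM (2.54, SE 0.41, adjusted p = 1.16e-04), the anterior sums resting on 8, 1 and 0 UMIs. Hoxd12 between them had 20, 1573 and 41 posterior and 1, 1 and 0 anterior UMIs and was removed by the filter on low values, as was Hoxa13 with 2, 139 and 0 against 0, 0 and 0. Hoxd10 was at 109 and 57.5, 107 and 53.3, and 97.6 and 48.2 CPM (0.97, SE 0.15, adjusted p = 7.45e-05), with 118, 16 and 9 anterior UMIs. Its call was lost without B6_E9.5 (1.00, adjusted p = 0.11) and in thinned cells (0.71, adjusted p = 0.46). Hoxd9, the next gene toward the 3′ end, did not differ by more than its error (-0.02, SE 0.11, adjusted p = 1.00). Hoxd4 (-0.50, adjusted p = 0.20) and Hoxd8 (-0.12) were not called either. Of the 6 tested HoxD genes, 3 were thus higher posterior and 0 higher anterior.

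Hoxb9 (chr11:96271457-96276595, + strand) had the largest fold change of all, and its level depended on the library. It was at 165 and 6.82 CPM in B6_E9.5, at 2.48 and 0 in B6_E10.5 and at 45.03 and 0 in 129_E9.5. The posterior excess was 24.2-fold (14.4 to 44.2) in B6_E9.5 and at least 2.25-fold (lower limit of the interval) in 129_E9.5, while in B6_E10.5 the anterior sum of 0 UMIs allows up to 10.0 CPM, more than the posterior level, so that no difference was detectable there (fitted difference 4.66, SE 0.29, adjusted p = 1.41e-14). A Hoxb9 UMI was found in 71.9%, 1.90% and 26.2% of posterior cells, in 7 of 109, 0 of 30 and 0 of 17 anterior cells and in 3.08%, 0.723% and 0.510% of ectodermal cells. Thinned, the posterior shares were 42.0%, 0.915% and 14.0%. Without B6_E9.5 Hoxb9 had too few anterior UMIs to be tested. Hoxa9 (0.80) and Hoxa10 (0.76) were also higher posterior, Hoxa9 losing the call without B6_E9.5 (0.52, adjusted p = 0.35) and Hoxa10 without B6_E10.5 (0.51, adjusted p = 0.13).

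In the 3′ groups the genes higher anterior included Hoxa4, Hoxa5, Hoxb3, Hoxb4, Hoxb5, Hoxc4 and Hoxc5. Hoxc5 (chr15:102967443-103017429, + strand) was at 18.2 and 67.7 CPM in B6_E9.5, at 2.80 and 73.3 in B6_E10.5 and at 17.0 and 64.2 in 129_E9.5 (-2.35, SE 0.28, adjusted p = 4.15e-07). Its anterior levels rested on 139, 22 and 12 UMIs. Hoxb3 was at 20.6 and 46.3, 6.56 and 49.99, and 12.1 and 42.8 CPM (-1.55, SE 0.26, adjusted p = 1.57e-04), and Hoxb5 at 45.6 and 72.1, 4.64 and 53.3, and 24.2 and 80.3 (-1.22, SE 0.27, adjusted p = 7.60e-03). The annotated models of Hoxc5, Hoxc6 and Hoxc8, of Hoxa3, Hoxa4 and Hoxa5, and of Hoxd3 and Hoxd4 overlap, so that counts could be split or lost among them. Without B6_E9.5 the calls of Hoxb3, Hoxb5 and Hoxc5 held (-2.48, -2.56 and -3.36), and those of Hoxa4 (-2.86, adjusted p = 0.88), Hoxa5 (-1.16, 0.11), Hoxb4 (-1.66, 0.11) and Hoxc4 (-2.06, 0.071) did not. Hoxb8 and Hoxc8, at the 5′ side of their groups, went the other way: Hoxc8 was at 43.4 and 4.87, 0.640 and 3.33, and 19.7 and 0 CPM (3.08, SE 0.40, adjusted p = 1.98e-06), and Hoxb8 at 79.3 and 29.2, 2.48 and 13.3, and 38.6 and 37.5 (1.11, SE 0.28, adjusted p = 0.029). Their posterior excess rested on B6_E9.5 (and 129_E9.5 for Hoxc8): without B6_E9.5 Hoxb8 turned to -0.62 (adjusted p = 0.97) and Hoxc8 could not be tested.

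**Figure D4:**
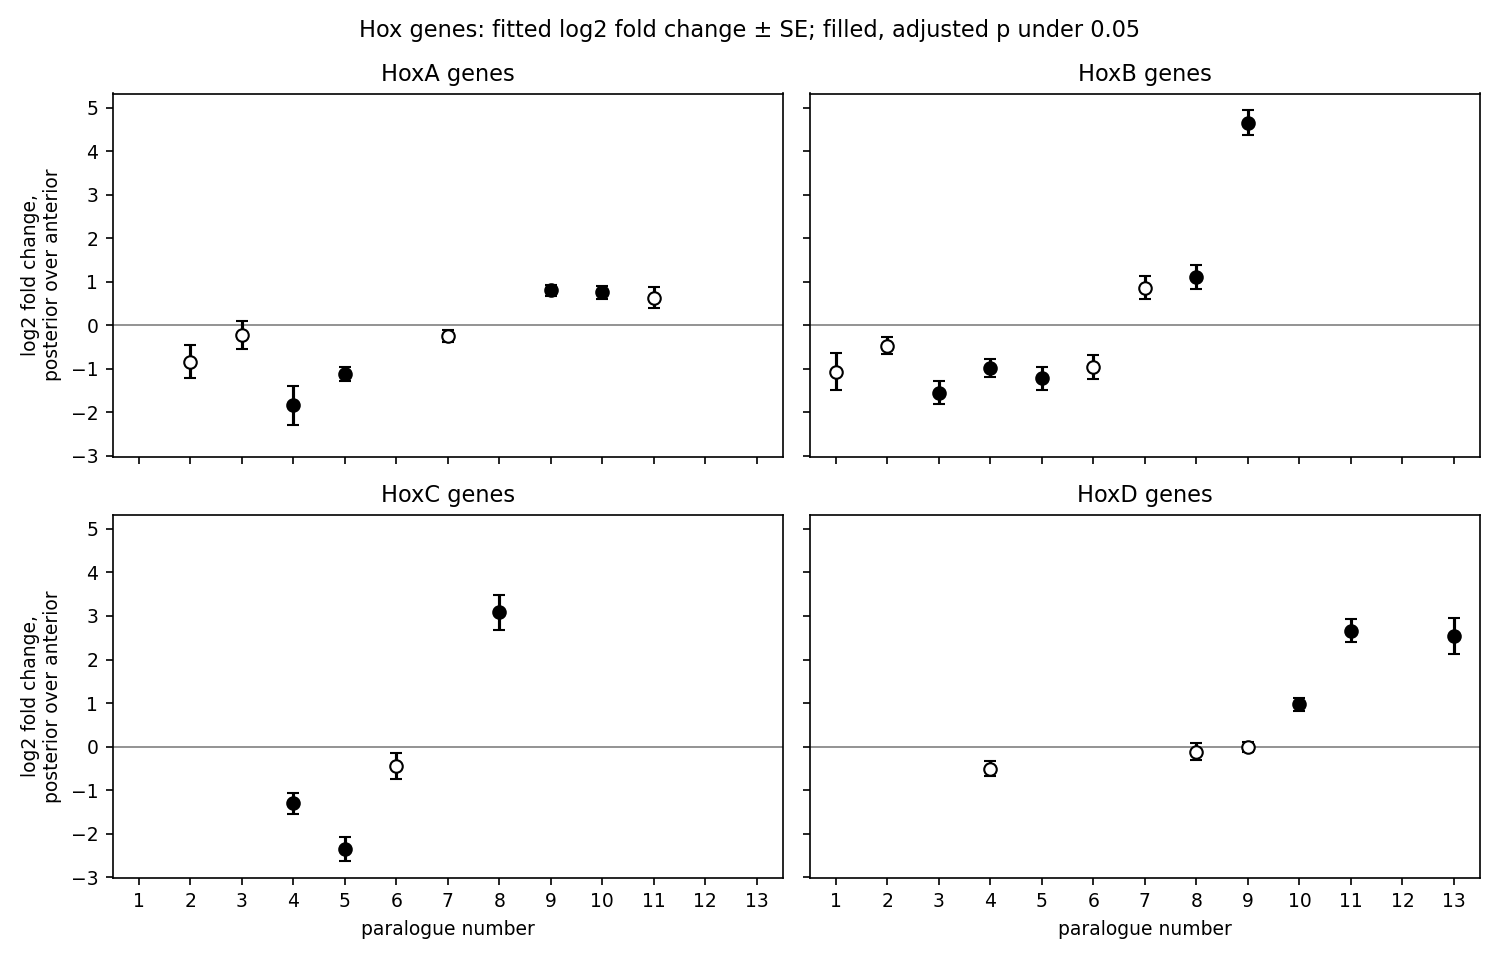
Fitted log2 fold change with its SE, posterior over anterior, of tested Hox genes by paralogue number, 1 panel for each cluster; filled points passed an adjusted p of 0.05. Most points of groups 1 to 6 lie below 0 (median of groups 1 to 8 -0.89) and those of groups 9 to 13 at or above it (median 0.89).

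Genes of the limb field that act across the bud differed too. Of 15 tested T-box and limb field factors, 1 was higher posterior and 6 higher anterior (median -0.23). Lhx9, a LIM homeobox gene that relays fibroblast growth factor signals from the ridge (chr1:138825186-138848577, - strand), was at 145 and 381 CPM in B6_E9.5, at 109 and 370 in B6_E10.5 and at 166 and 359 in 129_E9.5, with anterior levels within a narrow range (-1.42, SE 0.11, adjusted p = 6.88e-12). A Lhx9 UMI was found in 63.3%, 42.7% and 63.8% of posterior cells and in 92.7%, 83.3% and 94.1% of anterior cells, against 9.96%, 7.23% and 5.10% of ectodermal cells. Thinned to 4000 UMIs these became 35.1%, 27.3% and 44.8% posterior and 69.7%, 56.7% and 76.5% anterior. Its relative Lhx2 was at 78.6 and 186, 56.4 and 163, and 132 and 235 CPM (-1.20, SE 0.13, adjusted p = 2.06e-08). Of 2 tested genes of the separate Msx and Dlx list, 1 was called, higher anterior. This was Msx1, a homeobox target of BMP signals, at 246 and 489, 116 and 387, and 220 and 476 CPM (-1.21, SE 0.11, adjusted p = 6.02e-10). Shox2, which shapes the upper arm, was the T-box and limb field member higher posterior, at 73.0 and 46.8, 368 and 127, and 151 and 48.2 CPM (1.09, SE 0.15, adjusted p = 6.02e-06). These 4 calls held without each library and with DESeq2.

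Lmx1b, the selector of dorsal identity, was at 39.1 and 97.5 CPM in B6_E9.5, at 21.2 and 16.7 in B6_E10.5 and at 46.9 and 58.9 in 129_E9.5, higher anterior in 2 of 3 libraries (-0.93, SE 0.20, adjusted p = 6.00e-03), and without B6_E9.5 the fitted difference was -0.08 (adjusted p = 1.00). Tbx15 (-1.43) and Zbtb16 (-1.44) also lost their calls without B6_E9.5 (-0.53, adjusted p = 0.92, and -0.82, adjusted p = 0.93). The general mesenchyme and outgrowth genes did not pass: Tbx5, the forelimb selector (0.11), Prrx1 (-0.17), Twist1 (-0.23) and Fgf10 (0.26). Msx2, at 59.7 and 46.8, 34.5 and 223, and 26.9 and 48.2 CPM, was not called either (-0.87, SE 0.30, adjusted p = 0.26).

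Of 15 tested genes of the proximal limb and retinoic acid, 3 were higher anterior and 0 posterior (median -0.13). Crabp2, a retinoic acid-binding protein, was at 438 and 659, 427 and 687, and 391 and 723 CPM (-0.68, SE 0.09, adjusted p = 1.06e-06). It was higher anterior in each library, with the widest gap in 129_E9.5, and the difference held without each library. Rarb, a receptor gene induced by retinoic acid, was at 35.9 and 57.5, 6.80 and 20.0, and 15.1 and 53.5 CPM (-0.90, SE 0.23, adjusted p = 0.032), and was lost without B6_E9.5 (-1.71, adjusted p = 0.34) and without 129_E9.5 (-0.76, adjusted p = 0.11). Meis1 (-0.25) and Meis2 (-0.05), which mark proximal cells, were not called.

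Other signalling pathways differed in single genes. Of all tested genes 1.37% were called, so that 0 calls in a short list is near that share. Of 24 tested WNT genes, 2 were higher posterior and 1 anterior (median -0.14). Wnt5a, the ligand of directed outgrowth, was at 48.2 and 18.0, 106 and 76.7, and 34.8 and 0 CPM (1.17, SE 0.23, adjusted p = 1.46e-03). Dkk1, a secreted WNT inhibitor, was at 17.6 and 0.975, 16.0 and 26.7, and 18.5 and 5.35 CPM (1.88, SE 0.50, adjusted p = 0.045), and Nkd1, an intracellular one, was higher anterior (-0.64, SE 0.16, adjusted p = 0.020). Without B6_E9.5, Wnt5a (0.76, adjusted p = 0.76) and Nkd1 (-0.9996, adjusted p = 0.13) were not called and Dkk1 turned to -0.14 (adjusted p = 1.00). Without B6_E10.5 Nkd1 was also lost (-0.41, adjusted p = 0.15). Of 15 BMP genes, Bambi, a pseudoreceptor, was higher posterior (0.82, adjusted p = 2.27e-03; 0.62, adjusted p = 0.90 without B6_E9.5) and 0 were higher anterior. Of 13 FGF genes and 5 Notch genes, 0 were called in either direction, with Dusp6, the feedback target of FGF, at -0.28 (SE 0.14, adjusted p = 0.755). Of 28 guidance genes, Epha3, Robo2 and Unc5c were higher posterior and Efnb2 higher anterior. Robo2 and Efnb2 each lost the call without B6_E9.5 (1.18, adjusted p = 0.23, and -1.56, adjusted p = 0.23) and without B6_E10.5 (1.08, adjusted p = 0.66, and -0.66, adjusted p = 0.060).

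Cell division genes were called in 1 of the 3 lists that hold them: 2 of 9 tested cell cycle inhibitors and D cyclins, Cdkn1c and Ccnd1, were higher posterior and 0 higher anterior. Of 20 S phase and 19 G2 and M phase genes tested, 0 were called, with medians of 0.0014 and -0.0205, as were 0 of 17 genes of glycolysis, 0 of 12 of apoptosis and 0 of 10 housekeeping genes (at an unadjusted p under 0.05, 632 of all 9340 genes were found by edgeR and 200 by DESeq2). With 1.37% of all tested genes called, 0 in lists of this size is near that share. Cdkn1c, an imprinted brake on the cell cycle, was at 248 and 62.4 CPM in B6_E9.5, at 724 and 700 in B6_E10.5 and at 269 and 118 in 129_E9.5, far apart at E9.5 and level at E10.5 (1.02, SE 0.18, adjusted p = 4.26e-04; 0.29, adjusted p = 0.86 without B6_E9.5). Ccnd1, a D cyclin, was at 150 and 145, 242 and 90.0, and 237 and 107 CPM (0.56, SE 0.15, adjusted p = 0.049), and lost the call without B6_E10.5 (0.27, adjusted p = 0.48) and without TMM factors. Of 8 cartilage genes, Col2a1 was higher posterior (1.85, adjusted p = 0.015) and Runx2 higher anterior (-2.88, adjusted p = 6.78e-04), both from few UMIs and both lost without B6_E9.5 (2.32, adjusted p = 0.12, and -2.84, adjusted p = 0.20), while Sox9 was not called (0.30, SE 0.23, adjusted p = 0.97).

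Among 14 tested genes of connective tissue and matrix, Osr1, a factor of connective tissue progenitors (1.44, adjusted p = 0.031), and Col1a1, a collagen chain (1.16, adjusted p = 0.028), were higher posterior and Igf1, a growth factor, higher anterior (-1.53, adjusted p = 4.68e-03). Osr1 was at 8.10 and 5.36, 72.6 and 13.3, and 9.46 and 0 CPM, and without B6_E10.5 it was not called (0.78, adjusted p = 0.73), nor was Col1a1 without B6_E9.5 (0.43, adjusted p = 0.97). Of 15 imprinted and oncofetal genes, Plagl1 (2.27, adjusted p = 0.015) and Dlk1 (0.47, adjusted p = 0.049) were higher posterior and Peg3 higher anterior (-0.48, adjusted p = 1.06e-03). Plagl1 and Dlk1 lost the call without B6_E9.5 (1.90, adjusted p = 0.93, and 0.08, adjusted p = 0.99) and Peg3 without B6_E10.5 (-0.31, adjusted p = 0.080). Of 10 tested cadherins and protocadherins, Pcdh19 alone was called, and Cdh2 and Cdh11 were not.

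Levels were graded across the cells the rule left out. In B6_E10.5, Ptch1 was at 17.1 CPM in cells with 1 Alx4 UMI and no Hand2, at 27.6 in cells with neither, at 30.7 in cells with both, at 48.6 with 1 Hand2 UMI, and at 66.0, 82.1 and 86.6 with 2, 3 and at least 4. Hoxd11 in the same library was at 57.9, 113, 93.0, 184, 244, 265 and 303 CPM. Both levels followed the Hand2 count in this library, and cells with both transcripts lay near those with neither. Gas1 in B6_E10.5 ran the other way, at 420, 327, 324, 227, 180, 156 and 105.4 CPM. In B6_E9.5 Gas1 was at 435, 361, 371, 269, 238, 217 and 153 CPM. In cells of a single Hand2 or Alx4 UMI, outside the rule but from the same libraries, 54 of the 71 genes called posterior and 48 of the 57 called anterior had the same direction in 3 of 3 libraries, where 15.5% and 15.4% of all tested genes had it. These are descriptions with no test, and deeper cells hold more Hand2 UMIs: the median total in B6_E10.5 was 6892 UMIs with 1 and 9958 with at least 4.

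**Figure D5:**
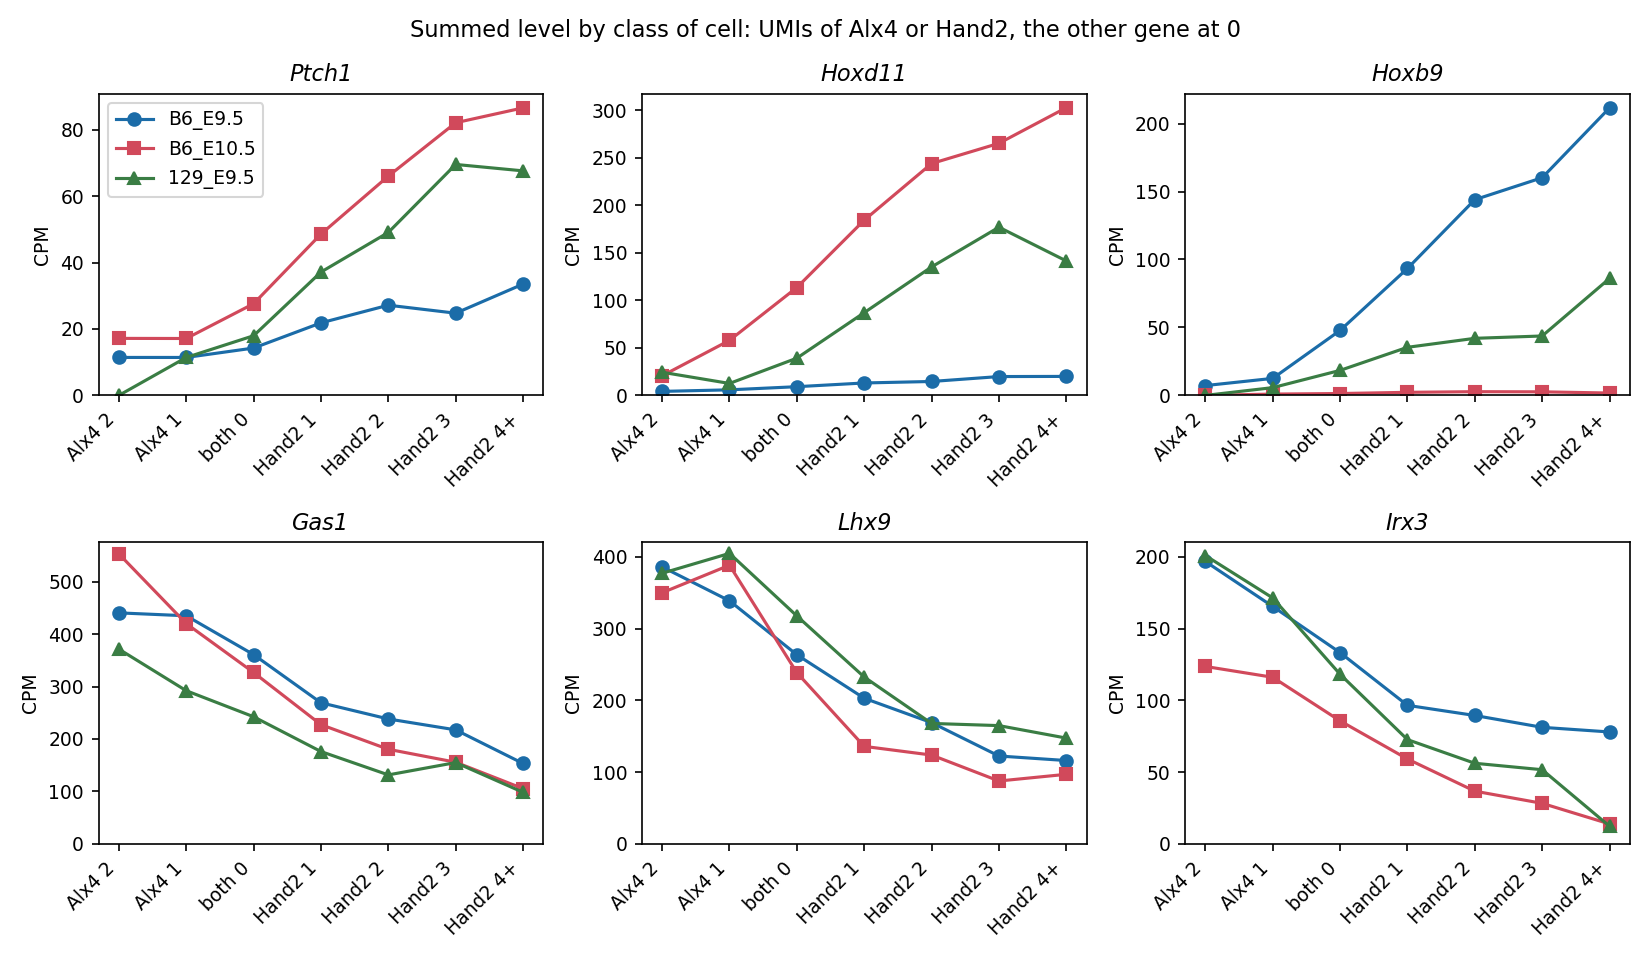
Summed level (CPM) of 6 genes by class of cell, from 2 Alx4 UMIs on the left through neither gene to at least 4 Hand2 UMIs on the right, the other gene at 0, for each library (colour); cells of at least 3 Alx4 UMIs (19, 1 and 2) are not drawn. Ptch1, Hoxd11 and Hoxb9 (near 0 throughout in B6_E10.5) are higher at the right end than at the left, and Gas1, Lhx9 and Irx3 are lower.

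Transcripts of neighbouring tissues were present in small amounts on both sides, but not evenly. The 9 mesothelium and flank markers summed to 84.8 CPM posterior and 44.3 anterior in B6_E9.5, to 95.5 and 127 in B6_E10.5 and to 69.6 and 21.4 in 129_E9.5, with 0, 3 and 0 of the 9 at 0 posterior and 4, 5 and 8 anterior. Tbx18, which is also on the anterior limb list, was at 19.2 and 34.6, 91.6 and 113, and 34.1 and 21.4 CPM. It made most of each anterior sum and of the posterior sum in B6_E10.5. In B6_E9.5 every other marker of the list was higher posterior. Gata6, which marks flank and heart mesoderm, was called higher posterior: it was at 28.4 and 7.31, 1.92 and 6.67, and 15.1 and 0 CPM (1.85, SE 0.39, adjusted p = 4.68e-03). Hand1 and Wt1 had 118 and 116 posterior UMIs in B6_E9.5 and 0 anterior. The 6 cardiomyocyte markers summed to 45.1 and 10.7, 3.04 and 0, and 9.46 and 5.35 CPM, with 0, 0 and 2 of the 6 at 0 posterior and 3, 6 and 5 anterior, and most of the sum was Tnni1 (2.12, SE 0.34, adjusted p = 7.49e-05). The 7 somite markers summed to 11.1 and 27.3, 118 and 197, and 18.9 and 32.1 CPM, more anterior in each library, with 2, 1 and 3 at 0 posterior and 4, 2 and 4 anterior. Of these, Meox1 (-2.27, adjusted p = 1.11e-03) and Tcf15 (-1.48, adjusted p = 0.033; -0.79, adjusted p = 0.83 without B6_E10.5) were called higher anterior and Uncx was at 0 on both sides. Meox1 was at 2.32 and 17.5, 6.56 and 10.0, and 1.14 and 5.35 CPM, with 36, 3 and 1 anterior UMIs. The counting interval of its ratio left out 1 in B6_E9.5 alone. Meox2, also tested, was not called (0.38, adjusted p = 0.97), at 6.37 and 6.82, 81.6 and 49.99, and 8.32 and 5.35 CPM. Foxc2 had 7, 29 and 1 posterior UMIs and 0 anterior.  Gata6, Tnni1 and Meox1 could not be tested without B6_E9.5.

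After cells with any UMI of the flank or heart lists (Hand1 and Tbx18 not counted, since they also stand on the limb lists) were left out, which took the posterior cells of B6_E9.5 from 974 to 411, 40 genes were called higher posterior and 45 higher anterior. Ptch1 (2.18), Gas1 (-1.43), Gli3 (-0.60), Hoxd11 (2.81), Hoxb9 (4.64), Irx3 (-1.93), Lhx9 (-1.29) and Tbx3 (1.15) stayed called. Bambi (0.34, adjusted p = 0.85), Hoxb8 (1.08, adjusted p = 0.17), Dkk1 (1.28, adjusted p = 0.58) and Lmx1b (-0.70, adjusted p = 0.070) did not. Of the 69 called genes described by name or list, 49 kept the call, 15 lost it and the others had too few UMIs left to be tested. The other losses were Lamb1, Tpd52l1, Tcf15, Rnf150, Hoxa4, Hoxb5, Efnb2, Robo2, Osr1, Col1a1 (0.48, adjusted p = 0.96) and Dlk1 (0.15, adjusted p = 0.98). The part of the somite markers in the anterior differences was not tested.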

How the data were processed

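The deposited matrix of raw UMI counts per gene and cell was made by the authors from 10x 3′ version 2 reads with Cell Ranger 3 on mm10, per the submitters' processing notes; further settings are not given in the sources used here. Stage, strain and cluster of the cells were read from their deposited annotation. Of 15122 gene IDs, 15119 were matched to a symbol (GENCODE, GRCm38). The genes and lists described here were chosen with earlier results of these data known.

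UMIs of the chosen cells were summed per side and library, without Hand2 and Alx4, and fitted with edgeR 4.0.16 (R 4.3.3; filterByExpr on side, TMM, glmQLFit, library and side as terms; Benjamini-Hochberg over 9340 genes). Pairing comes from the reaction: both sides of a library are the same sample. The procedure was tested on simulated data. Levels are CPM, ratio intervals are exact conditional binomial and shares exact Clopper-Pearson (95%), for counting error only, and 0 stands below 3 UMIs of a library's sum. Named were the 12 genes of largest fold each way (called, same sign in 3 of 3 libraries, at least 20 CPM on the higher side in at least 2), the tested members of the Hedgehog, posterior and anterior lists, the called and up to 4 most abundant members of other lists and a fixed set of limb genes. No doublet caller was run; cells with both genes were outside the rule. Alternatives were DESeq2 1.42.0, other scalings, filters, cell sets and each library left out. Some genes of the lists are not reported here by name or drawn, and remain in the fits and counts.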

Additional observations from a re-analysis of the deposited data

Results flagged for a closer look

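Among the 155 genes described by name or list, 9 met a rule on opposite directions: the posterior over anterior ratio of CPM lay on one side of 1 in every library of one stage or strain and on the other side in every library of the other, and the 95% counting interval of at least 1 library on each side left out 1. Other genes also had mixed directions, such as Dkk1, Lmx1b, Msx2, Tbx2 and Grem1, but did not meet that rule. The share of all 9340 tested genes that meet the rule is not given, so 9 of 155 cannot be read as an excess. With 1 library per stage and strain the difference was not tested, and the genes are given as values. Alx1 was higher posterior in B6_E9.5 (1.77-fold) and 129_E9.5 (1.56) and lower in B6_E10.5 (0.135). Hoxb8 stood at 2.71, 1.03 and 0.186 in the same order. Crabp1, a retinoic acid-binding protein, was at 1.72, 1.499 and 0.508, and Id3, a target of BMP signals, at 1.90, 1.30 and 0.603. Slbp was at 1.15, 1.01 and 0.775, and Hmga2 at 1.22, 1.09 and 0.833. Epha4 and Col9a1 were the reverse, higher posterior at E10.5 (2.26 and 1.71) and lower in B6_E9.5 (0.847 and 0.278) and 129_E9.5 (0.471 and 0.448). Gapdh separated by strain, at 1.07 and 1.04 in the 2 c57bl6.J libraries and 0.861 in 129_E9.5.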

How the results depend on the processing

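The counts of genes called, 71 higher posterior and 57 higher anterior, moved by over 1.5 times in at least 1 direction under these settings (posterior, then anterior): no library block, 0 and 0; DESeq2's test, 12 and 31; no filter on low genes, 114 and 68; cells thinned to 4000 UMIs, 13 and 20; cells chosen by 1 UMI, 117 and 102, or by 3, 6 and 9; cells with flank or heart markers left out, 40 and 45. Leaving out 1 library gave 17 to 115 and 26 to 89. No TMM factors (67 and 60), DESeq2 size factors (67 and 64), cells of at least 8000 UMIs (59 and 50) and the deepest 5% of cells left out (65 and 47) stayed within that range. Without the block 69 of the 69 named genes called lost the call, so that the result rests on comparing sides within a library. With 3 UMIs the anterior side held 19, 1 and 2 cells, and the median of all genes shifted to 0.1212. Leaving out 1 library gave -0.6183 to 1.3371 for Hoxb8 and -0.1360 to 3.7177 for Dkk1, both reversed without B6_E9.5; the cause was not tested. Depth limits the anterior side of B6_E10.5 and 129_E9.5, where 3 UMIs are 10.0 and 16.1 CPM.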
